A study of Mus musculus with 12 samples.

Results

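The integrins Itga4, Itga5, Itga6, Itgal, Itgam, Itgav, Itgb1, Itgb2 and Itgb5 and the adhesion molecule Icam1 are 10 genes of the BV2 mouse microglial transcriptome, chosen by name from the 21834 genes of the deposited count table. BV2 is an immortalized microglial cell line. RNA was sequenced from 1 line carrying a control shRNA (shCtrl) and 1 line carrying an shRNA against Anxa2 (shAnxa2). Each was made with lentivirus and selected with puromycin. With 1 line of each kind, an effect of the knockdown and a difference between the lines cannot be told apart. Each line was left untreated (CTRL) or taken through oxygen-glucose deprivation of 4 h and reoxygenation (OGDR; the treatment itself is written OGD/R), a culture model of ischemia and reperfusion. The labels give 12 h of reoxygenation, and the methods of the study give a longer time for these cells. There were 3 libraries in each of the 4 groups shCtrl-CTRL, shCtrl-OGDR, shAnxa2-CTRL and shAnxa2-OGDR, 12 in all.

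Integrins are receptors of 1 alpha and 1 beta chain that tie a cell to its matrix or to another cell and signal in both directions across the membrane. The beta chain Itgb2 (CD18) is shared by the leukocyte integrins: with Itgal (CD11a) it makes LFA-1, and with Itgam (CD11b) it makes Mac-1, the complement receptor by which microglia are often identified. Both bind ICAM-1, which is induced by inflammatory signals through NF-κB. Itgb1 pairs with Itga4 to bind VCAM-1 and fibronectin, with Itga5 to bind fibronectin and with Itga6 to bind laminin, while Itgav with Itgb5 binds vitronectin.

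Groups were taken from the sample names, because a separate label calls every OGDR library an Anxa2 knockdown and every CTRL library wild type. Anxa2, the targeted gene, followed the names: its level was 165 to 177 CPM (read counts scaled to a common library size) in shCtrl-CTRL and 251 to 295 in shCtrl-OGDR, against 35.0 to 44.4 in shAnxa2-CTRL and 18.2 to 20.6 in shAnxa2-OGDR. This checks the line of a library and not its treatment. Over the 11626 genes with enough counts to test, the closest pair of groups was shCtrl-CTRL and shAnxa2-OGDR, with a root mean square difference of 0.42 on the log2 scale, followed by shCtrl-OGDR and shAnxa2-CTRL at 0.45; libraries of the same group differed by 0.25 to 0.28. Of 5239 genes called after OGD/R in both lines, 98.6% moved in opposite directions. The directions given below for OGD/R in the shAnxa2 line therefore rest on the sample names, as does which shAnxa2 libraries are compared with untreated shCtrl cells and which with shCtrl cells after OGD/R.

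Total counts were 19521877 to 27288843 per library, and none of the 10 genes fell under 171 counts in any library. All 13 microglia and macrophage markers were measured, with a summed level of 2324 to 2884 CPM, but Cx3cr1, P2ry12, Tmem119 and Aif1, which mark microglia in tissue, did not exceed 10.7 CPM in any library. Astrocyte, neuron, oligodendrocyte and lymphocyte markers each summed to at most 6.71 CPM. The 5 endothelial markers summed to 209 to 216 CPM in shCtrl-CTRL, 109.9 to 119 in shCtrl-OGDR, 166 to 179 in shAnxa2-CTRL and 279 to 285 in shAnxa2-OGDR. Kdr with 1273 to 5688 counts and Vwf with 991 to 1399 made up nearly all of that sum, while Cdh5 had 2 to 39 counts, Tek 1 to 5 and Cldn5 0 to 4. The part of this in the results below was not tested.

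Every one of the 10 genes differed between the untreated lines (8 to 10 when 1 library was left out, with Itga5 and Itgb1 the ones that lost their calls), and 6 of them differed between the lines in the same direction whether or not the cells had been through OGD/R. Of all genes tested, 59.2% were called between the untreated lines and 10.6% were called in both comparisons of the lines with the same direction. A gene is called here when its adjusted p is under 0.05 by the quasi-likelihood test of edgeR, adjusted over all 11626 genes by Benjamini-Hochberg. Most of the transcriptome passed that threshold, so the counts below say little about these genes as a group. OGD/R changed 7 of the 10 in shCtrl cells, where 63.4% of all genes were called, with Itgal and Itgb2 higher (background 32.4%) and Itga4, Itga6, Itgam, Itgav and Itgb1 lower (31.0%). It changed 5 of the 10 in shAnxa2 cells, where 55.0% were called, with Itga4 and Icam1 higher (28.2%) and Itgal, Itgam and Itgb2 lower (26.8%).

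Untreated shAnxa2 cells differed from untreated shCtrl cells in all 10 genes, with a background of 59.2%: Itga5, Itgal, Itgb2, Itgb5 and Icam1 were higher (29.5%) and Itga4, Itga6, Itgam, Itgav and Itgb1 lower (29.7%). After OGD/R the lines differed in 9 of the 10, with a background of 67.9%: Itga5, Itgav, Itgb5 and Icam1 were higher in shAnxa2 (33.8%) and Itga4, Itga6, Itgal, Itgam and Itgb2 lower (34.2%). Most of these differences were under 1.5-fold. With a second limit of at least 1.5-fold, no gene of the 10 was called for OGD/R in shCtrl (background 20.1%) or in shAnxa2 (12.1%), Itga4 and Itga6 were called between untreated lines (15.6%), and Itga6 and Icam1 were called between lines after OGD/R (26.3%). The change with OGD/R differed between the lines for 6 of the 10 genes in the interaction term, where 70.0% of all genes were called: the difference was positive for Itga4, Itga6, Itgav and Icam1 (34.9%) and negative for Itgal and Itgb2 (35.1%), and it was at least 1.5-fold for Itga4, Itgal and Itgav (41.8%). Counted without a test, the 3 libraries of one group did not overlap the 3 of the other for 7 of the 10 genes for OGD/R in shCtrl (all genes 68.0%), 5 in shAnxa2 (58.9%), 9 between untreated lines (63.6%) and 9 after OGD/R (69.9%). The study's methods call the replicates of these cell lines biological, while the labels do not say whether libraries of a group came from separate cultures. The p-values measure only the spread between these libraries.

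**Figure D1:**
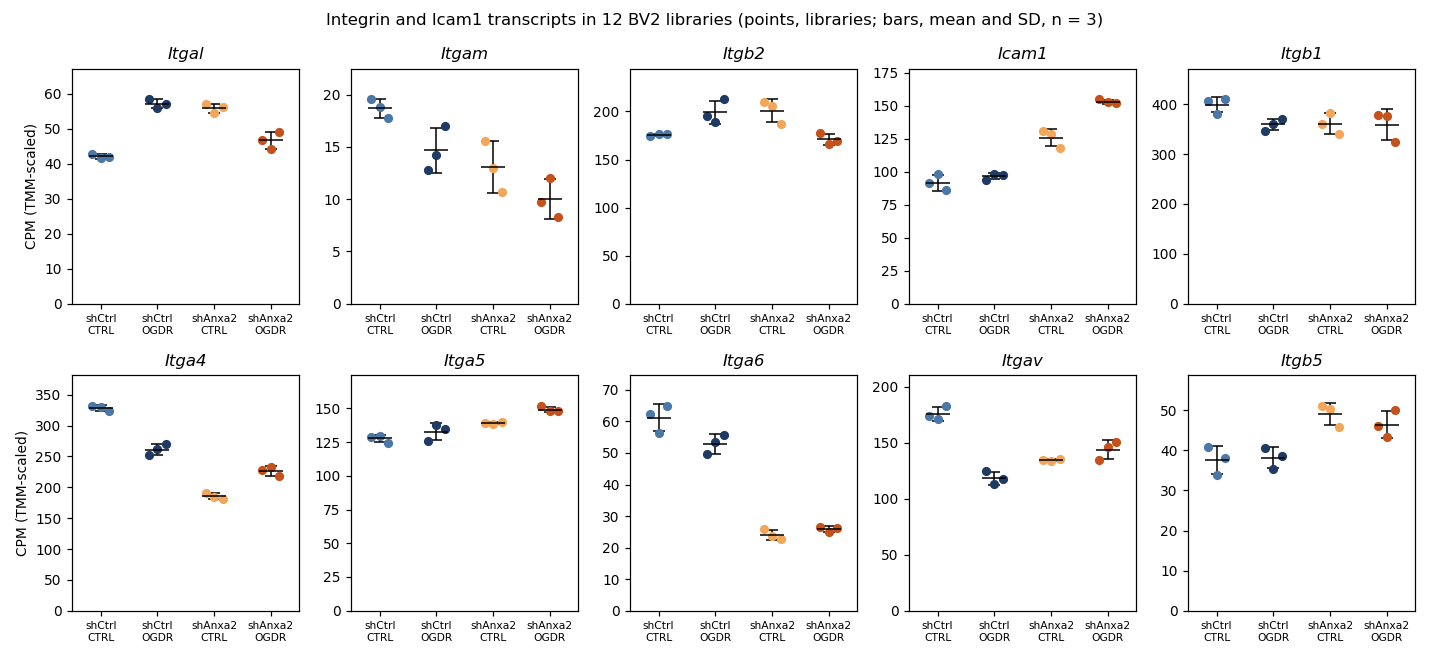
Level of each of the 10 genes in CPM after TMM scaling (y axis, from 0) in each of the 12 libraries (points), by group (x axis). Bars give the mean and SD of 3 libraries. Itga6 and Itga4 were lower in both shAnxa2 groups than in both shCtrl groups and Icam1 was higher, whereas Itgal and Itgb2 were higher in shCtrl-OGDR and shAnxa2-CTRL than in the other two groups.

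Levels of different genes were compared per kilobase of exon. Itgb1 and Itgb2 led: Itgb1 stood at 97.8 ± 3.86 CPM per kb (SD, n = 3) in shCtrl-CTRL and Itgb2 at 57.6 ± 0.37, followed by Itga5 at 25.9 ± 0.57, Itga4 at 23.5 ± 0.31, Icam1 at 21.0 ± 1.39, Itgav at 16.3 ± 0.57 and Itgb5 at 10.6 ± 1.00. Itga6 at 6.78 ± 0.48 and Itgal at 6.42 ± 0.10 had overlapping libraries and so no order between them, and Itgam was lowest at 3.72 ± 0.18. By exon length, Itgb1 ranked 1, Itgb2 ranked 2 and Itgam last in all 4 groups. The last place of Itgam depends on how reads in exons shared with another gene model were assigned, as given below. The middle of the order shifted with the group: Icam1 ranked 5 in shCtrl-CTRL and 3 in shAnxa2-OGDR at 35.1 ± 0.35 CPM per kb, while Itga4 ranked 4 in shCtrl-CTRL and 6 in shAnxa2-CTRL at 13.3 ± 0.37. The order also depended on the length used. With the longest protein-coding transcript in place of all exons, Icam1 ranked 3 in shCtrl-CTRL at 36.2 CPM per kb and passed Itgb2 in shAnxa2-OGDR, at 60.4 against 57.6.

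Of the leukocyte integrin chains, Itgb2 and Itgal changed in the same directions, and Itgam did not follow them throughout. Itgb2 (ENSMUSG00000000290, chr10:77366086-77401542, plus strand; positions here are those of the deposited table, on mm39) was at 174, 176 and 176 CPM in shCtrl-CTRL, 196, 189 and 213 in shCtrl-OGDR, 209.7, 206 and 187 in shAnxa2-CTRL and 177, 167 and 169 in shAnxa2-OGDR. The libraries of shCtrl-OGDR and shAnxa2-CTRL were the high ones in each comparison, with no overlap with the lower groups. Itgb2 rose with OGD/R in shCtrl by 0.18 ± 0.052 on the log2 scale (SE; edgeR adjusted p = 0.0041) and fell in shAnxa2 by 0.23 ± 0.052 (adjusted p = 0.00063). It was 0.19 ± 0.052 higher in untreated shAnxa2 than in untreated shCtrl cells (adjusted p = 0.0028) and 0.22 ± 0.052 lower on the log2 scale after OGD/R, a log2 fold change of −0.22 (adjusted p = 0.00069).

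Itgal (ENSMUSG00000030830, chr7:126895432-126934310, plus strand), the alpha chain of LFA-1, was likewise higher in shCtrl-OGDR and shAnxa2-CTRL than in the other groups, with wider gaps. Its level was 42.9, 41.6 and 41.9 CPM in shCtrl-CTRL, 58.5, 56.1 and 57.2 in shCtrl-OGDR, 57.0, 54.5 and 56.2 in shAnxa2-CTRL and 46.8, 44.2 and 49.1 in shAnxa2-OGDR. Every shCtrl-OGDR library was above every shCtrl-CTRL library, and every shAnxa2-OGDR library was below every shAnxa2-CTRL library. The log2 fold change of OGD/R was 0.44 ± 0.055 in shCtrl (adjusted p = 2.05e-07) and −0.26 ± 0.056 in shAnxa2 (adjusted p = 0.00038). The difference between these 2 changes was the widest of the 10 genes, −0.70 ± 0.079 (adjusted p = 2.35e-08).

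Itgam (ENSMUSG00000030786, chr7:127661812-127717663, plus strand), the CD11b chain of Mac-1, went its own way. It measured 19.6, 18.8 and 17.7 CPM in shCtrl-CTRL, 12.8, 14.2 and 17.0 in shCtrl-OGDR, 15.6, 12.9 and 10.7 in shAnxa2-CTRL and 9.75, 12.002 and 8.29 in shAnxa2-OGDR. Its libraries overlapped between the shAnxa2 groups but not between the shCtrl groups, where the highest OGDR library lay just under the lowest CTRL library. OGD/R gave log2 fold changes of −0.36 ± 0.12 in shCtrl (adjusted p = 0.015) and −0.37 ± 0.14 in shAnxa2 (adjusted p = 0.027). These calls were thin. Without shCtrl-OGDR replicate 1 the change in shCtrl was −0.26 (adjusted p = 0.11), and the call in shAnxa2 was lost without any of 4 libraries: −0.22 (adjusted p = 0.20) without shAnxa2-CTRL replicate 1, −0.37 (0.052) without shAnxa2-CTRL replicate 2, −0.34 (0.067) without shAnxa2-OGDR replicate 1 and −0.25 (0.14) without shAnxa2-OGDR replicate 3.

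The difference between the lines in Itgam was firmer. It was −0.52 ± 0.13 in untreated cells (adjusted p = 0.0011) and −0.53 ± 0.13 after OGD/R (adjusted p = 0.0012), and both calls held without any 1 library. The interaction was −0.011 with a 95% interval of −0.44 to 0.41, which is wide enough to hold a difference of the size seen in Itgb2. The level of Itgam is uncertain. In the GENCODE annotation of GRCm38, 3450 of the 5024 exon bases of Itgam (68.7%) are also exon of Gm49368, a gene model on the same strand to which the table gives 0 to 2 counts per library, and how reads in shared exons were assigned is not given in the sources used here for these cells. If all counted reads came from the 1574 bases that are not shared, the level would be 11.9, 9.33, 8.31 and 6.36 CPM per kb in shCtrl-CTRL, shCtrl-OGDR, shAnxa2-CTRL and shAnxa2-OGDR. In each group that is above Itga6 per kb of exon, so Itgam would not be last.

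The promoter of Itgam is shown because this gene is a standard myeloid marker, and its 250 bases before the start (RefSeq, GRCm38.p6, chr7:128062390-128062639, plus strand) hold the letters GAGGAA, the purine-rich core that PU.1 binds, in 2 places: 84 bases before the start on the plus strand and 15 before it on the minus strand, both in capitals.
Itgam: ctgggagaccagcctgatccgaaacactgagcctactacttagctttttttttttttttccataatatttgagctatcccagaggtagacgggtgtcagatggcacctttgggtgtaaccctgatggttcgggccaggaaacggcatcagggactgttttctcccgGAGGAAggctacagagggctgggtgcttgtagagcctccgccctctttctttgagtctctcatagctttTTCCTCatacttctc
These letters are common. On either strand they occur in 23.25% of 32851 mouse promoters of the same length, and also in those of Itga5, Itgav and Itgb1 among the 7 of the 10 genes with a promoter entry. A match is a description of the letters and shows no binding.

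Icam1 (ENSMUSG00000037405, chr9:20927281-20940113, plus strand), the ligand of LFA-1 and Mac-1, was higher in the shAnxa2 line at both treatments. Its level was 91.2, 98.1 and 86.0 CPM in shCtrl-CTRL and 94.0, 98.2 and 97.9 in shCtrl-OGDR, against 131, 128 and 118 in shAnxa2-CTRL and 155, 152 and 152 in shAnxa2-OGDR. The lowest shAnxa2 library stood above the highest shCtrl library, and the shCtrl groups overlapped. Against shCtrl, Icam1 was higher in shAnxa2 by 0.45 ± 0.052 on the log2 scale without treatment (adjusted p = 6.24e-08) and by 0.66 ± 0.052 after OGD/R (adjusted p = 4.44e-11), the latter a 1.58-fold difference.

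OGD/R raised Icam1 in the shAnxa2 line, by 0.28 ± 0.051 on the log2 scale (adjusted p = 5.07e-05). In shCtrl the value was 0.075 ± 0.052 (adjusted p = 0.21), with a 95% interval of −0.045 to 0.20; it was called without shCtrl-CTRL replicate 2 (0.14, adjusted p = 0.038). The difference between the lines in this change, 0.21 ± 0.073, was called (adjusted p = 0.014) but was not without shCtrl-CTRL replicate 2, at 0.14 (adjusted p = 0.087), or without shCtrl-OGDR replicate 1, at 0.17 (adjusted p = 0.054). Of the other ICAM genes, Icam2, which also binds LFA-1, averaged 12.5, 6.59, 7.07 and 11.6 CPM in the 4 groups in the order shCtrl-CTRL, shCtrl-OGDR, shAnxa2-CTRL and shAnxa2-OGDR. Icam2 thus fell with OGD/R in shCtrl, by 0.92 on the log2 scale (adjusted p = 8.9e-08), and rose in shAnxa2, by 0.72 (adjusted p = 7.15e-06). Icam5, mainly known from neurons, was low, with mean levels of 3.06, 4.35, 4.96 and 2.60 CPM, and went the opposite way, with log2 fold changes of 0.52 in shCtrl (adjusted p = 0.0053) and −0.92 in shAnxa2 (adjusted p = 3.75e-05).

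Because Icam1 is a textbook NF-κB target, its 250 bases before the start (RefSeq, GRCm38.p6, chr9:21015690-21015939, plus strand) are given with GGAAATTCC in capitals. This stretch begins 153 bases before the start and matches the kappa B letters GGAANNTCC when read from either strand.
Icam1: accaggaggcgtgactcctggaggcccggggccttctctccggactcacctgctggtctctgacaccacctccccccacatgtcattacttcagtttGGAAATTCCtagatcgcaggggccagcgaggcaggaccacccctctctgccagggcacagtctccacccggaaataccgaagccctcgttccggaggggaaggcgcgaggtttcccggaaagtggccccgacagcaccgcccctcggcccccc
The letters GGAANNTCC, searched on both strands, occur in 3.586% of the 32851 promoters. None of the other 6 of these genes with an entry holds them. This was the only kappa B string searched, so other forms of the site could have been missed. A match shows no binding. No entry was at hand for Itga6, Itgal and Itgb2.

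Among the beta 1 integrins, Itga4 and Itga6 differed more between the untreated lines than Itgb1 (ENSMUSG00000025809, chr8:129412135-129459681, plus strand), the chain they share. Itgb1 ranged from 323 to 409.9 CPM over the 12 libraries, with means of 399 ± 15.8 in shCtrl-CTRL, 359 ± 11.9 in shCtrl-OGDR, 361 ± 20.7 in shAnxa2-CTRL and 359 ± 30.9 in shAnxa2-OGDR. The shCtrl-CTRL libraries were the high ones, and 1 of them overlapped the shAnxa2-CTRL group. Its 2 calls were small: −0.15 ± 0.058 for OGD/R in shCtrl (adjusted p = 0.026) and −0.14 ± 0.058 between untreated lines (adjusted p = 0.035). The first was lost without any of 4 libraries (shCtrl-CTRL replicates 1 and 3, shCtrl-OGDR replicates 1 and 2; adjusted p = 0.057 to 0.13) and the second without any of 4 (shCtrl-CTRL replicates 1 and 3, shAnxa2-CTRL replicates 1 and 3; adjusted p = 0.072 to 0.17). OGD/R in shAnxa2 gave −0.0077, with a 95% interval of −0.14 to 0.13, and the lines after OGD/R differed by −0.0012, with an interval of −0.14 to 0.13. The interaction, 0.14 (adjusted p = 0.12), was called without shAnxa2-OGDR replicate 3 (0.20, adjusted p = 0.017).

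Itga6 (ENSMUSG00000027111, chr2:71575960-71688760, plus strand), the laminin-binding chain, differed most between the lines of all 10 genes. It was at 62.4, 56.4 and 64.8 CPM in shCtrl-CTRL and 49.6, 53.3 and 55.6 in shCtrl-OGDR, against 25.8, 23.8 and 22.6 in shAnxa2-CTRL and 26.7, 24.8 and 26.3 in shAnxa2-OGDR. The 6 shAnxa2 libraries lay under every shCtrl library, by a wide gap. The log2 fold change between the lines was −1.35 ± 0.070 untreated (adjusted p = 6.98e-14), 0.393 times the shCtrl level, and −1.03 ± 0.070 after OGD/R (adjusted p = 4.65e-12), 0.491 times that level. OGD/R lowered Itga6 in shCtrl by 0.21 ± 0.065 (log2 fold change −0.21, adjusted p = 0.0062), a call lost without shCtrl-CTRL replicate 3 (−0.16, adjusted p = 0.061) or shCtrl-OGDR replicate 1 (−0.16, adjusted p = 0.058). In shAnxa2 the OGD/R value was 0.11 ± 0.075 (adjusted p = 0.23).

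Itga4 (ENSMUSG00000027009, chr2:79085770-79163467, plus strand), the alpha chain of VLA-4, was also lower in the shAnxa2 line, by an amount that depended on treatment. Its level was 332, 331 and 324 CPM in shCtrl-CTRL, 252, 262 and 269.7 in shCtrl-OGDR, 191, 184 and 181 in shAnxa2-CTRL and 228, 233 and 218 in shAnxa2-OGDR. No 2 of the 4 groups overlapped. The line difference was −0.82 ± 0.047 without treatment (adjusted p = 3.7e-13) and −0.21 ± 0.047 after OGD/R (adjusted p = 0.00042). OGD/R lowered Itga4 in shCtrl, with a log2 fold change of −0.33 ± 0.046 (adjusted p = 1.03e-06), and raised it in shAnxa2, by 0.29 ± 0.047 (adjusted p = 1.56e-05), a difference of 0.62 ± 0.066 between the lines (adjusted p = 9.89e-09). Exons of Itga4 share 1124 bases with Cerkl on the opposite strand, and whether strand was used in counting is not given, but Cerkl had only 4 to 14 counts per library. Exons of Itgav and Icam1 likewise share 634 and 511 bases with Gm13684 and Gm47079 on the opposite strand, which were not analysed here.

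Itga5 (ENSMUSG00000000555, chr15:103252713-103275190, minus strand), the alpha chain of the fibronectin receptor, went the other way from Itga4 and Itga6 between the lines. Its means were 128 ± 2.80 CPM in shCtrl-CTRL, 133 ± 6.20 in shCtrl-OGDR, 139 ± 0.96 in shAnxa2-CTRL and 149 ± 2.18 in shAnxa2-OGDR. The shAnxa2 groups were higher at each treatment with no overlap, but by little. The log2 fold change between lines was 0.12 ± 0.045 untreated (adjusted p = 0.020) and 0.17 ± 0.045 after OGD/R (adjusted p = 0.0020), and the first was not called without shCtrl-CTRL replicate 3 (0.11, adjusted p = 0.070). OGD/R itself gave 0.055 in shCtrl (adjusted p = 0.30) and 0.099 in shAnxa2 (adjusted p = 0.067), with 95% intervals of −0.049 to 0.16 and −0.0051 to 0.20.

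The chains of the vitronectin receptor differed in their pattern over the 4 groups. Itgav (ENSMUSG00000027087, chr2:83554741-83637260, plus strand) was at 174, 171 and 183 CPM in shCtrl-CTRL, 124, 113 and 117 in shCtrl-OGDR, 134, 134 and 136 in shAnxa2-CTRL and 134, 146 and 151 in shAnxa2-OGDR. The shCtrl-CTRL libraries were the high ones and the shCtrl-OGDR libraries the low ones, with both shAnxa2 groups between them and overlapping each other. OGD/R lowered Itgav in shCtrl, with a log2 fold change of −0.57 ± 0.050 (adjusted p = 5.72e-10) that was the largest OGD/R change of the 10 genes, and gave 0.094 ± 0.051 in shAnxa2 (adjusted p = 0.12), called only without shAnxa2-OGDR replicate 1 (0.14, adjusted p = 0.034). The line difference was −0.38 ± 0.050 without treatment (adjusted p = 5.49e-07) and 0.28 ± 0.051 after OGD/R (adjusted p = 3.02e-05), and the interaction was 0.67 ± 0.071 (adjusted p = 1.13e-08).

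Itgb5 (ENSMUSG00000022817, chr16:33650035-33769708, plus strand) differed by line and showed no called change with OGD/R. Its means were 37.6 ± 3.56 CPM in shCtrl-CTRL, 38.2 ± 2.62 in shCtrl-OGDR, 49.1 ± 2.77 in shAnxa2-CTRL and 46.4 ± 3.41 in shAnxa2-OGDR. Every shAnxa2 library was above every shCtrl library. The line difference was 0.39 ± 0.074 untreated (adjusted p = 9.23e-05) and 0.28 ± 0.075 after OGD/R (adjusted p = 0.0021). For OGD/R the 95% intervals were −0.15 to 0.20 in shCtrl and −0.25 to 0.090 in shAnxa2.

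**Figure D2:**
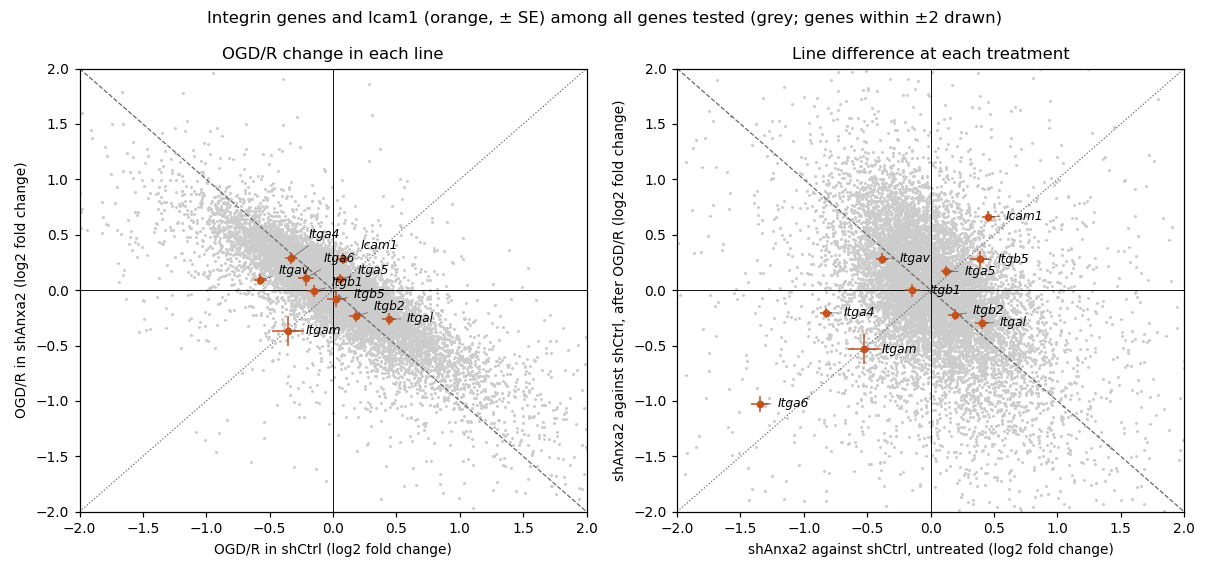
Log2 fold changes of the 10 genes (orange, ± SE) among all genes tested (grey). Left, OGD/R in shAnxa2 (y) against OGD/R in shCtrl (x); right, shAnxa2 against shCtrl after OGD/R (y) and untreated (x). The dotted line marks equal changes and the dashed line opposite ones. Itgam lies by the dotted line in both panels, and Itga6, Itga4, Itgam, Itga5, Itgb5 and Icam1 have the same sign on both axes at the right.

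The 2 OGD/R comparisons share no library, and neither do the 2 comparisons of the lines, so each pair can be read side by side. Of the 4 genes called for OGD/R in both lines (45.1% of all genes were), Itga4, Itgal and Itgb2 moved in opposite directions (44.4%) and Itgam moved down in both, subject to the lost calls given above. Over the whole table, 74 of the 5239 genes called in both (1.41%, and 0.637% of the genes tested) kept their direction. Between the lines, 9 of the 10 genes were called at both treatments (44.0% of all genes were), of which Itga4, Itga5, Itga6, Itgam, Itgb5 and Icam1 kept their direction and Itgal, Itgav and Itgb2 changed it (33.5%). Among all genes called at both treatments, 1229 of 5121 (24.0%, and 10.6% of the genes tested) kept their direction. These shares are descriptions, and no test of the 10 genes as a group was made.

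Within a library, ratios of chain counts do not depend on the scaling of the library. The smallest p that 3 libraries against 3 can give in the two-sided exact permutation test is 0.1, so none of the 32 ratio comparisons could pass 0.05, and where the groups did not overlap the adjusted p was 0.17. The ratio of Itgam to Itgal, the alpha chains that compete for Itgb2, was 0.443 ± 0.018 (SD, n = 3) in shCtrl-CTRL and 0.257 ± 0.039, 0.234 ± 0.042 and 0.216 ± 0.052 in shCtrl-OGDR, shAnxa2-CTRL and shAnxa2-OGDR. Untreated shCtrl cells thus stood apart from the other 3 groups, which overlapped. The shared exons of Itgam bear on the level of this ratio.

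The ratio of Itga6 to Itgb1 split by line, at 0.153 ± 0.0051 and 0.147 ± 0.0037 in shCtrl-CTRL and shCtrl-OGDR against 0.0668 ± 0.0045 and 0.0727 ± 0.0080 in shAnxa2-CTRL and shAnxa2-OGDR. For Itga4 to Itgb1 the 4 groups were all separate, at 0.825 ± 0.040, 0.727 ± 0.0017, 0.515 ± 0.028 and 0.633 ± 0.037 in the same order. The counts of these chains follow transcript abundance and length, and so do not give numbers of receptor pairs. The ratio of Itgav to Itgb5 was 4.70 ± 0.41 in shCtrl-CTRL against 3.09 ± 0.081, 2.75 ± 0.18 and 3.10 ± 0.24 in the others, a pattern like that of Itgam to Itgal. The ratio of Itgal to Itgb2 varied less, from 0.236 to 0.246 in shCtrl-CTRL and from 0.264 to 0.301 in the other 9 libraries.

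**Figure D3:**
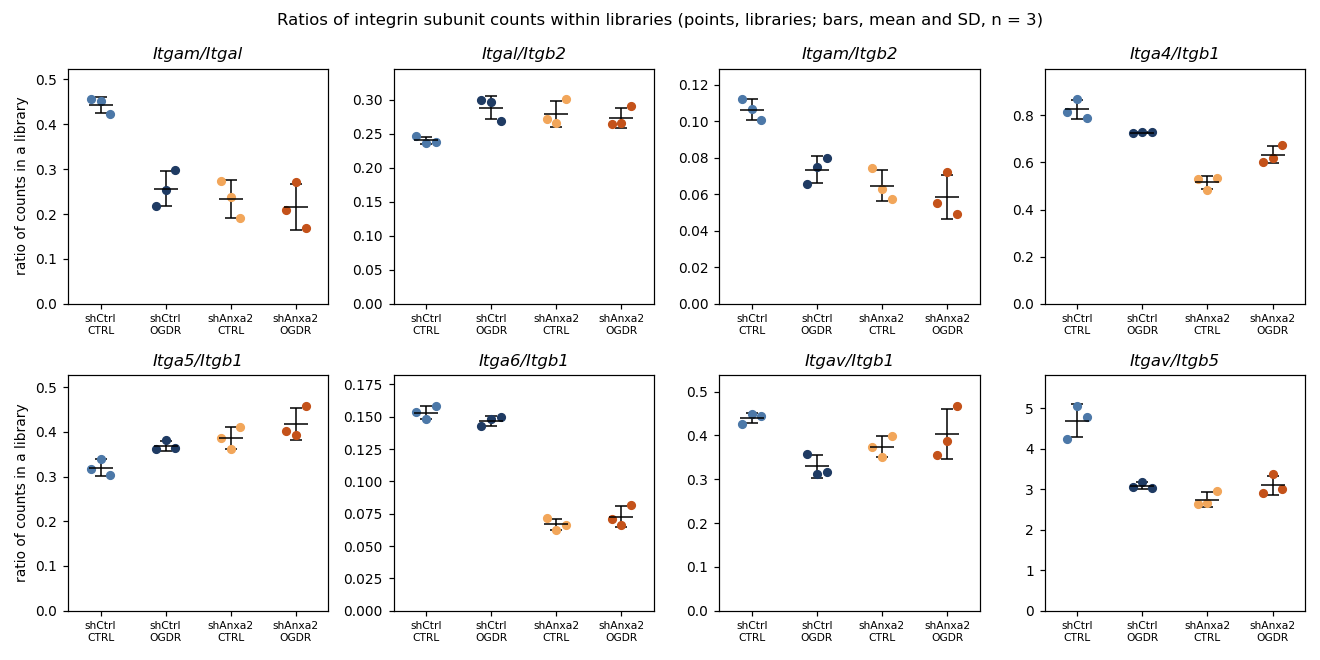
Ratio of the counts of 2 integrin chains in the same library (y axis, from 0) for 8 pairs, by group (x axis; points, libraries; bars, mean and SD, n = 3). Itga6/Itgb1 was about 0.15 in the shCtrl groups and about 0.07 in the shAnxa2 groups, and Itgam/Itgal was high in shCtrl-CTRL alone.

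Of the 17 other integrin chains on a list of the family, 8 had enough counts to test. Itga7, a laminin receptor chain, was the highest of them, with means of 20.3 to 24.9 CPM, and was called only between untreated lines, at 0.29 (adjusted p = 0.0013). Itgax (CD11c), the remaining well-measured partner of Itgb2, averaged 13.6, 19.4, 9.36 and 7.90 CPM in shCtrl-CTRL, shCtrl-OGDR, shAnxa2-CTRL and shAnxa2-OGDR. It was lower in the shAnxa2 line at both treatments, with log2 fold changes of −0.53 untreated (adjusted p = 2.43e-05) and −1.30 after OGD/R (adjusted p = 8.44e-12), as Itgam was. With OGD/R it rose by 0.52 in shCtrl (adjusted p = 9.13e-06) and fell by 0.24 in shAnxa2 (adjusted p = 0.042), the directions of Itgal and Itgb2. The fall reached an adjusted p of 0.12 among the alternative fits. Itgad, another Itgb2 partner, was not tested, with mean levels of at most 0.081 CPM.

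Itgb3, the other main partner of Itgav, was scarce, with 4 to 67 counts per library and means of 0.30, 1.13, 2.84 and 0.69 CPM in the 4 groups. Its log2 fold change of 3.19 between untreated lines (adjusted p = 3.43e-09) was the largest of any integrin gene in the 4 group comparisons, from 4 to 12 counts in shCtrl-CTRL to 59 to 67 in shAnxa2-CTRL. Itgb7, a partner of Itga4, averaged 2.92, 1.84, 3.08 and 4.91 CPM, and was higher in shAnxa2 after OGD/R by 1.38 (adjusted p = 1.14e-06). Itgae, the CD103 chain that pairs with Itgb7, averaged 1.33 to 2.14 CPM and Itgb4, the partner of Itga6 in epithelium, 3.84 to 4.93 CPM. Itga9 and Itga10 had 6 to 50 and 11 to 38 counts per library. Over the 8 chains, 3 were higher (all genes 32.4%) and 3 lower (31.0%) with OGD/R in shCtrl, with a median log2 fold change of 0.079 beside 0.0045 over all genes tested, and 1 was higher (28.2%) and 3 lower (26.8%) in shAnxa2. Between the lines, 3 were higher (29.5%) and 1 lower (29.7%) untreated, and 3 were higher (33.8%) and 2 lower (34.2%) after OGD/R.

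Ligands of these receptors were few in the libraries. Of 10 cell-bound ligands other than Icam1, Icam2, Icam5 and Jam2 were tested, and of 23 matrix and soluble ligands, 6 were. Spp1 (osteopontin), which binds alpha v integrins, was the most abundant, with means of 6653 to 8614 CPM, and was lower in shAnxa2 than in shCtrl after OGD/R by 0.37, a log2 fold change of −0.37 (adjusted p = 2.19e-09), and higher in shAnxa2 without treatment (0.13, adjusted p = 0.0039). With OGD/R it rose by 0.19 in shCtrl (adjusted p = 7.47e-05) and fell by 0.31 in shAnxa2 (adjusted p = 1.19e-07). C3, whose fragment iC3b is bound by Mac-1, averaged 76.5, 279, 347 and 177 CPM in shCtrl-CTRL, shCtrl-OGDR, shAnxa2-CTRL and shAnxa2-OGDR. It rose with OGD/R in shCtrl by 1.87 (adjusted p = 8.26e-17) and fell in shAnxa2 by 0.97 (adjusted p = 1.69e-11). Tgfb1, whose latent form is bound by alpha v integrins, fell in shCtrl by 0.46 (adjusted p = 1.86e-05) and rose in shAnxa2 by 0.34 (adjusted p = 0.0011). Lama5, a laminin chain, had 16 to 57 counts per library.

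Of 29 genes that activate integrins or join them to actin and kinases, 25 were tested. With OGD/R in shCtrl 11 were higher (all genes 32.4%) and 7 lower (31.0%), and in shAnxa2 5 were higher (28.2%) and 8 lower (26.8%). Between the lines 9 were higher in shAnxa2 (29.5%) and 8 lower (29.7%) without treatment, and 8 were higher (33.8%) and 11 lower (34.2%) after OGD/R. The medians lay within 0.15 of 0 on the log2 scale in each of these comparisons, as did those of all genes. Zyx (zyxin), an adhesion site protein, fell from 38.5 to 14.9 CPM with OGD/R in shCtrl (log2 fold change −1.38, adjusted p = 1.82e-12) and rose from 19.4 to 33.8 CPM in shAnxa2 (0.80, adjusted p = 4.15e-08). Src was higher in untreated shAnxa2 than in untreated shCtrl cells, at 42.2 against 14.9 CPM (2.83-fold, adjusted p = 4.93e-14), and lower after OGD/R (log2 fold change −0.26, adjusted p = 0.0039). With OGD/R it rose by 1.07 in shCtrl (adjusted p = 1.96e-11) and fell by 0.69 in shAnxa2 (adjusted p = 3.26e-08). Bcar1 (p130Cas), a scaffold of focal adhesions, was higher in shAnxa2 at both treatments. The difference was 0.80 untreated (adjusted p = 2.8e-05) and 1.33 after OGD/R (adjusted p = 1.68e-08). Fgr, called between untreated lines at 1.52 (adjusted p = 0.0045), had only 2 to 31 counts per library. Without shAnxa2-CTRL replicate 3 Fgr was not called there (1.14, adjusted p = 0.057).

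**Figure D4:**
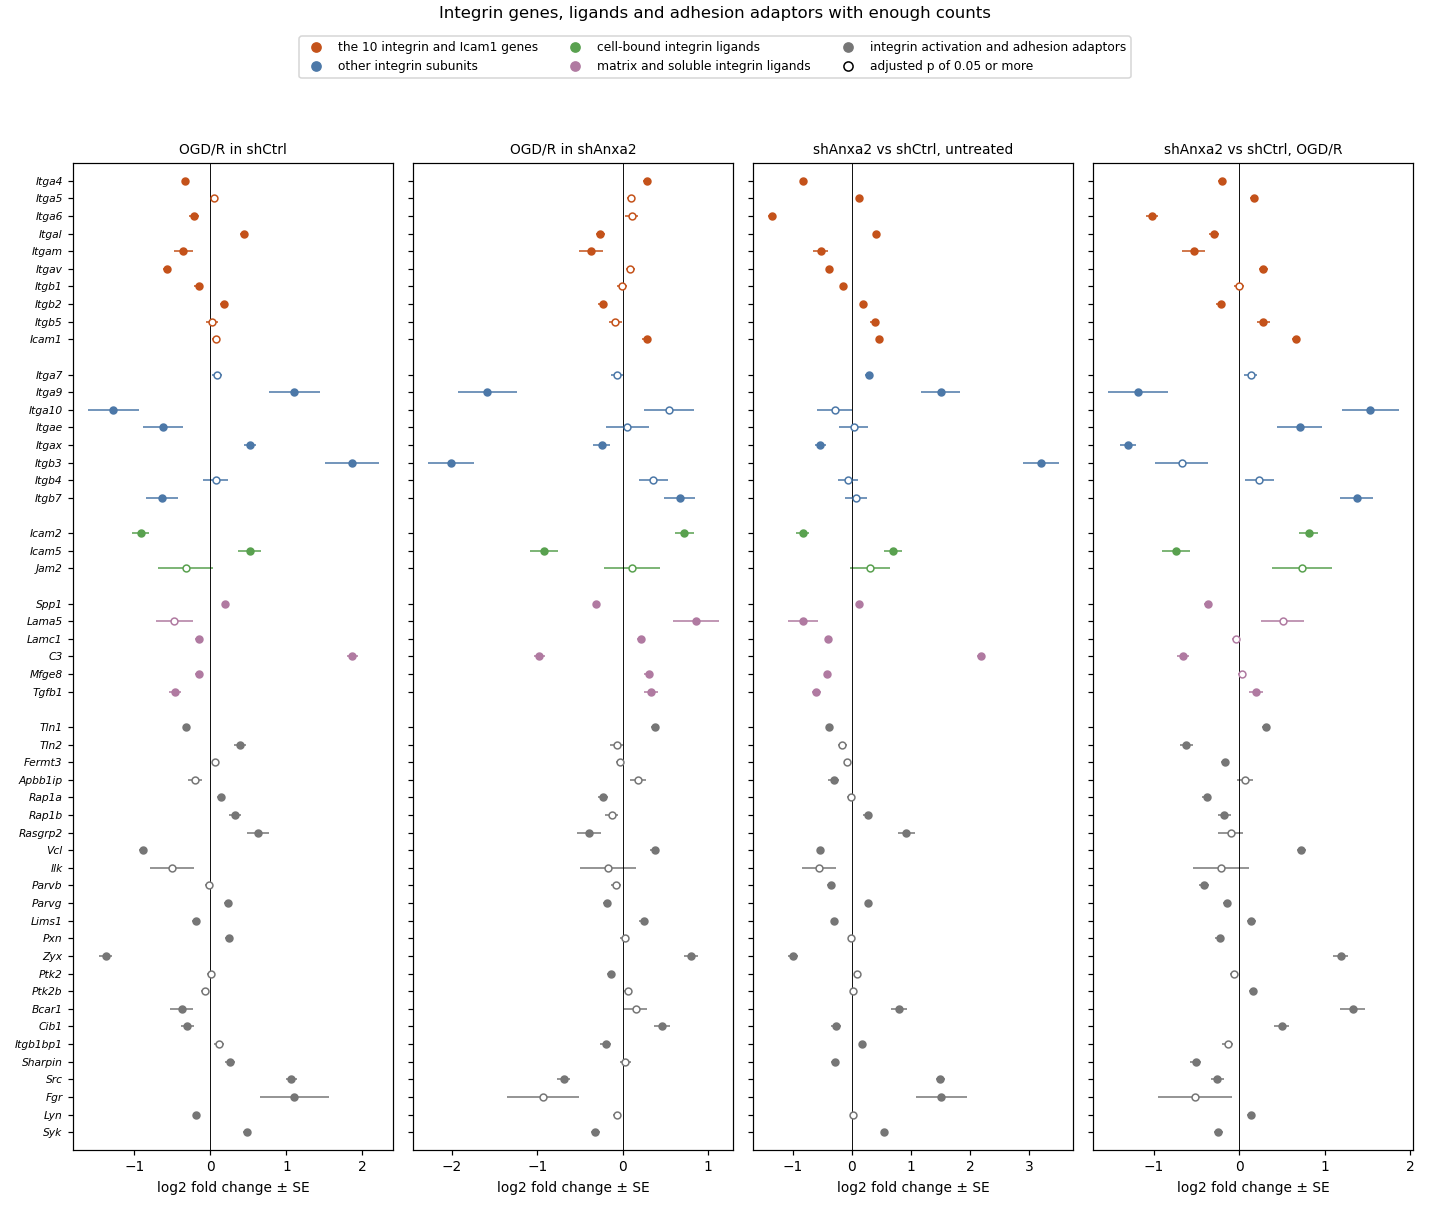
Log2 fold change ± SE (x axis; the scale differs between panels) of the 10 genes, the other integrin chains, their ligands and adhesion adaptors (y axis; all tested genes but 1), in 4 comparisons. Filled points have an adjusted p under 0.05. The 10 genes lie within 1.35 of 0 on either side. In the other lists Itga9, Itga10, Itgb3, Itgb7, C3, Zyx, Src and Fgr each reach further in some comparison. Between untreated lines Itga6, at −1.35, lies lowest of all genes drawn.

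Across the 12 libraries the genes most like a member were found by Pearson correlation of log2(CPM + 0.1) over the 8673 genes that averaged 10 CPM or more. The 12 libraries fall into 4 groups, so a high r mostly says that the group means follow the same order, and values are given as descriptions. For Icam1 the nearest were Znrf1 (r = 0.96) and Def8 (0.95), and for Itga5 the nearest was Icam1 itself (0.94), ahead of Fkbp2 (0.93). For Itga6 they were Fnbp1l (0.99) and C1qb (0.99), and for Itgal Irak1 (0.99) and Vwa8 (0.99). Itgam was nearest to Itsn2 (0.96) and Colec12 (0.95), and Itgb2 to Ggta1 (0.96) and Akr1b8 (0.95). Supt5 (0.99) was among the nearest to Itga4 and Gpr35 (0.94) among those to Itgav. The nearest to Itgb1 were Pcf11 (0.93) and Cwc22 (0.92), and to Itgb5 Ddb1 (0.93) and Nrbp1 (0.93).

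Among the 10 genes themselves, Itga4 and Itga6 were alike (r = 0.91), as were Itgal and Itgb2 (0.80). Itgam was closer to Itga6 (0.75) than to its own partner Itgb2 (0.24) or to Itgal (−0.26). Icam1 ran opposite to Itga6 (−0.90) and to Itgam (−0.78), and Itgav opposite to Itgal (−0.87). These values share the libraries and their depth, and they describe the order of the 4 groups.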

How the data were processed

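The values used are raw counts, which the authors deposited 1 row per gene with positions on mm39. The submitters' processing notes name HISAT2 2.0.4 and mm39. The counting program and its use of strand are not given in the sources used here for these cells. The same table holds 12 columns of the counts divided by size factors, which were not used. RNA libraries were made with a NEBNext Ultra kit. Groups and replicate numbers came from the sample names.

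Counts were scaled by TMM and fitted with edgeR 4.0.16 (R 4.3.3) as 1 quasi-likelihood model of the 4 groups over 12 libraries, for 11626 genes with at least 0.5 CPM in at least 3 libraries, with Benjamini-Hochberg adjustment. A fitted SE is the log2 fold change divided by the square root of F. The biological coefficient of variation was 5.35%. Ratios of counts were compared by two-sided exact permutation tests. Exon lengths came from GENCODE M21, which matched 99.8% of genes, and promoters from RefSeq (GRCm38.p6). The steps were tested on simulated counts. Alternatives were RLE factors, library totals alone, no filter or 1 CPM, DESeq2 1.42.0, limma 3.58.1 voom, fits of 2 groups, the replicate number as a block, and each library left out. The length alternative was chosen after seeing the data.

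The 10 genes and the lists were chosen with earlier results of these data known. Named besides them are Anxa2, all other integrin chains tested, up to 3 genes per ligand or adaptor list and comparison with the largest called change, and the 2 nearest genes of each by correlation. A few genes that this rule names are not reported here.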

Additional observations from a re-analysis of the deposited data

Results flagged for a closer look

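For 6 of the 10 genes the change with OGD/R differed between the lines by the interaction term of the edgeR model, in which 70.0% of all genes tested were called. The difference, as the log2 change in shAnxa2 minus that in shCtrl, was 0.62 for Itga4, 0.32 for Itga6 (adjusted p = 0.0060), −0.70 for Itgal, 0.67 for Itgav, −0.41 for Itgb2 (adjusted p = 2.64e-05) and 0.21 for Icam1. For Itga4, Itgal and Itgb2 the change was called in both lines with opposite signs, whereas Itga6 and Itgav were called in shCtrl alone and Icam1 in shAnxa2 alone. The interaction of Itga6 stayed called without any 1 library (0.26 to 0.37), and that of Icam1 did not. All of these directions rest on the treatments in the sample names.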

How the results depend on the processing

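No change of scaling, filter, tool or samples in the fit altered a call of any of the 10 genes in any of the 5 comparisons (RLE factors, library totals alone, no filter, 1 CPM, DESeq2, limma voom, only the 2 groups compared where this applies, and the replicate number as a block). Signs changed only for values near 0: the difference of Itgb1 between lines after OGD/R was 0.00035 with RLE factors and 0.00040 with DESeq2, and the interaction of Itgam was 0.021 with limma voom. No clear pairing of the libraries by replicate number was seen, but these correlations cannot exclude one. Of 18 same-numbered pairs of different groups, 1 had deviations correlated above 0.1 (−0.051 to 0.13), against 0 of 36 differently numbered pairs. For 6 of 12 libraries the highest correlation was with a library of their own number. With the number as a block, 7, 5, 10, 9 and 6 of the 10 genes were called, as without it, and over all genes 7355, 6373, 6872, 7890 and 8114, for OGD/R in shCtrl, OGD/R in shAnxa2, the lines untreated, the lines after OGD/R and the interaction. Leaving out each library in turn gave 4 to 8 of the 10 genes for OGD/R in shCtrl, with 4 without shCtrl-OGDR replicate 1, where Itga6, Itgam and Itgb1 lost their calls. A group left with 2 libraries shares the spread of the others. Among the 10 genes, values that changed sign with a library left out were those of Itgb5 for OGD/R in shCtrl (−0.038 to 0.084), Itgb1 for OGD/R in shAnxa2 (−0.049 to 0.057) and between lines after OGD/R (−0.045 to 0.061), and the interactions of Itga5 (−0.0093 to 0.072) and Itgam (−0.19 to 0.13), none of them called. So did, among the scarcer chains, Itgb4 for OGD/R in shCtrl (−0.021 to 0.22) and between untreated lines (−0.16 to 0.093), Itgae for OGD/R in shAnxa2 (−0.20 to 0.20) and between untreated lines (−0.088 to 0.16), and Itgb7 between untreated lines (−0.091 to 0.15). The log2 ratios that did so were Itgal to Itgb2 (−0.073 to 0.025), Itgam to Itgal (−0.30 to 0.039) and Itgav to Itgb1 (−0.0087 to 0.19) for OGD/R in shAnxa2, and Itgav to Itgb5 between lines after OGD/R (−0.060 to 0.044). Itgam had the fewest counts of the 10 genes, 171 to 513 per library.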
